A study of Mus musculus with 22 samples.

Results

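The comparison described here is the effect of a conditional knockout of Tlr4 on gene expression in the ulna that was not loaded. It rests on the left forearm bones of 11 mice, 7 wildtype (WT) and 4 conditional knockout (CKO), which are 11 of the 22 libraries of the series. The other 11 libraries come from the right ulnae of the same mice, which had been loaded mechanically, and are used below to show what the other limb of a mouse holds and in alternative fits. Members were chosen by label alone: genotype, and the limb recorded as not loaded. Total RNA of the middle part of each bone was sequenced, and the values are expected counts per gene. The labels used here give no age, sex, strain or Cre driver for either genotype, and neither a loading regime nor a time of harvest. Osteoblasts, which lay down bone matrix, are the cells in which the series title places the role of Tlr4 signalling. The mice are named by their numbers in the labels: 685, 686, 687, 690, 692, 694 and 699 for WT and 688, 691, 693 and 698 for CKO. Each mouse gave 1 non-loaded library, so n counts mice.

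TLR4 is a cell surface receptor of innate immunity that senses lipopolysaccharide of bacteria and molecules released by injured tissue. It works with the co-receptors Ly96 and CD14, and signals through the adaptors MyD88 and TIRAP or TICAM1 and TICAM2 to the NF-kB transcription factors and to interferon genes. In bone the receptor is carried by marrow macrophages and neutrophils, and by osteoblasts and their precursors. Osteocytes, the cells buried in bone matrix, secrete sclerostin (Sost), which restrains bone formation by blocking Wnt signalling.

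Levels are library-scaled CPM (counts relative to the library total, scaled by the trimmed mean of M values), and log2 fold changes are CKO over WT with their standard errors (SE). The 11 libraries held 22744319 to 42833729 counts, with a median of 33190338 in WT and 28811710 in CKO. Bone markers were present in every library: the lowest level of Col1a1, a chain of the main bone collagen, was 1833 CPM and that of Sost 259 CPM. The pieces of bone also held muscle and marrow RNA in unequal parts. The summed level of 24 skeletal muscle genes ranged from 47057 to 162365 CPM in WT and from 26139 to 180642 in CKO, and that of 18 neutrophil genes from 3740 to 22187 and from 4673 to 14583. WT 699 and CKO 691 had the lowest muscle and the highest neutrophil sum of their groups, and WT 685 had the highest sum of the osteoblast and osteocyte genes. In such bulk samples fewer cells of a type and less RNA per cell cannot be told apart.

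**Figure D1:**
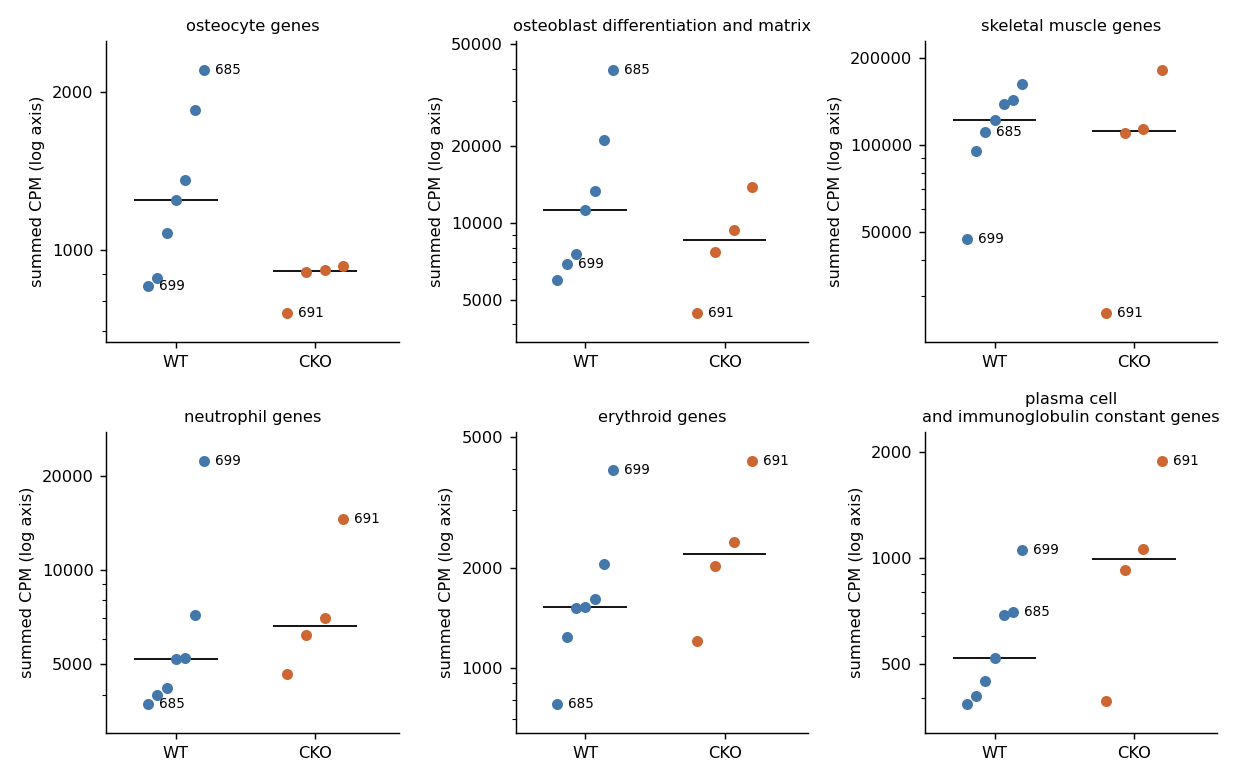
Summed CPM (log axis) of 6 gene lists in each non-loaded library, with WT in blue, CKO in orange and a line at the group median; mice 685, 691 and 699 are numbered. The 4 CKO libraries lie between 759 and 932 CPM for the osteocyte list, where WT spans 855 to 2195, and mice 691 and 699 are the lowest of their groups for muscle and the highest for neutrophil genes.

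Tlr4 itself (ENSMUSG00000039005, GRCm38 chromosome 4, 66827584 to 66930284, plus strand) was counted at similar levels in both genotypes. In WT the lowest level was 25.2 CPM, the median 31.4 and the highest 39.7. In CKO it was 29.6 CPM in mouse 688, 31.6 in 691, 25.9 in 693 and 34.1 in 698. The CKO values lie inside the WT range. The means were 32.8 ± 4.91 CPM (SD, n = 7) and 30.3 ± 3.45 (n = 4), and the log2 fold change was -0.11 ± 0.133 (SE; edgeR adjusted p = 1). An exact two-sided permutation test over all 330 splits of the 11 mice gave a difference of mean log2 CPM of -0.107 and p = 0.418. A count per gene takes in all cell types and all exons, so it cannot show a deletion in 1 cell type or of 1 exon, and these values do not check the genotype labels. The only tested gene within 1 Mb of Tlr4 was Astn2 (-0.32 ± 0.319, edgeR unadjusted p = 0.331). Of 29 tested genes within 5 Mb, 13 were fitted above and 16 below WT, with a median of -0.02 and none called.

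Over all 18185 genes tested, 1 passed an adjusted p of 0.05 in edgeR's quasi-likelihood test, a share of 0.00550%. That gene was Ltbp2, higher in CKO, and the next lowest adjusted p was 1. The median log2 fold change of all genes was -0.003, the 5th and 95th percentiles were -0.5 and 0.37, 49.3% of genes were fitted above WT and 50.7% below. An unadjusted p under 0.05 was reached by 275 genes, or 1.51%, against 909.2 expected if no gene differed and tests were independent; 79 of them were higher in CKO (0.434%) and 196 lower (1.08%). This count depended on the libraries and the tool: it was 154 without WT 686, 666 without CKO 688, 2049 without WT 699 and 2329 with limma voom's quality weights, so it gives no stable measure of how many genes differed. Among 15359 genes with a mean of at least 1 CPM over the 11 libraries, 32 were fitted at least 2-fold above WT and 14 at least 2-fold below. Of the 32, 17 were variable segments and 3 constant genes of immunoglobulins, where 114 of the 18185 genes tested were variable segments. A gene low in WT can pass this filter through its CKO values alone, so the 17 are described and not read as a result. Igkv9-120, for 1, had 0.198 to 1.27 CPM in WT and up to 16.4 in CKO.

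**Figure D2:**
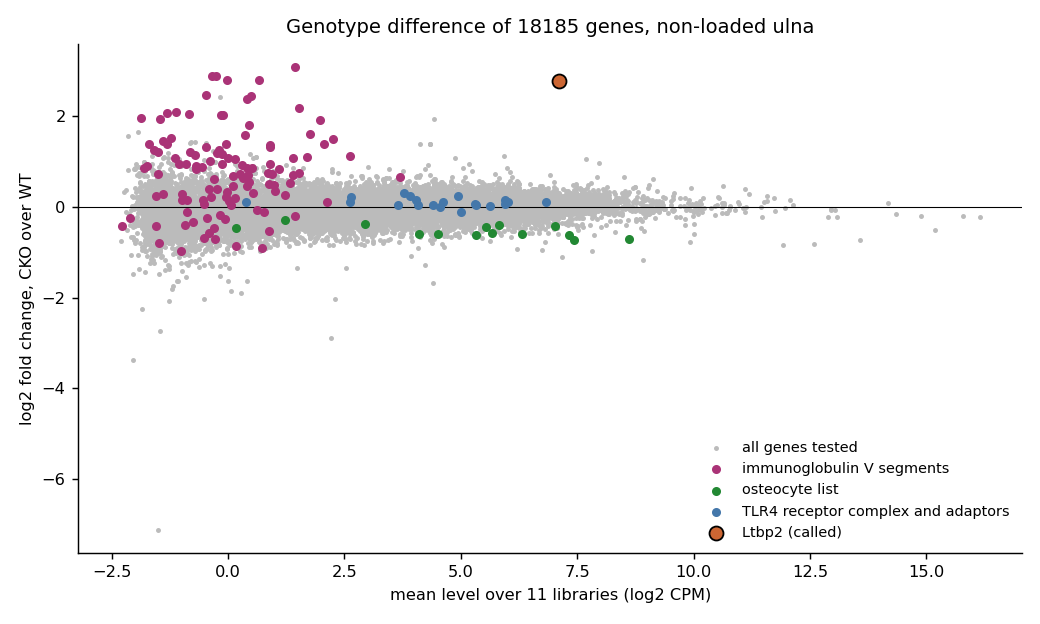
Log2 fold change, CKO over WT, of each of the 18185 tested genes against its mean level over the 11 non-loaded libraries (log2 CPM). Ltbp2, at 2.77, is the only gene called. Of the 32 genes with a mean of at least 1 CPM over the 11 libraries and a 2-fold higher value, 17 are immunoglobulin V segments. CKO values alone can carry a gene past that mean. All osteocyte genes lie below 0, and the genes of the TLR4 complex lie close to it.

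Ltbp2 encodes latent TGF-beta binding protein 2, a large fibrillin-like glycoprotein of the extracellular matrix that is found on microfibrils. The gene (ENSMUSG00000002020) lies on chromosome 12, 84783212 to 84876532, on the minus strand (GRCm38). Its level in the WT bones was 74.3 CPM in mouse 685, 46.5 in 686, 57.8 in 687, 37.8 in 690, 26.7 in 692, 28.6 in 694 and 37.3 in 699. In the CKO bones it was 313 CPM in mouse 688, 228 in 691, 316 in 693 and 347 in 698. The lowest CKO value, in mouse 691, lies well above the highest WT value, in mouse 685, and the groups did not overlap. The means were 44.1 ± 17 CPM (SD, n = 7) and 301 ± 50.9 (n = 4), a log2 fold change of 2.77 ± 0.263 (SE; edgeR unadjusted p = 2.27e-07, adjusted p = 0.00412). Leaving out any 1 library left the call in place, at an edgeR adjusted p of 0.00117 to 0.0318. It also held without WT 699 and CKO 691, the libraries low in muscle (2.85 ± 0.278, adjusted p = 0.011).

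The loaded limbs of the same mice bear on this call. With CPM scaled over all 22 libraries, 6 of 7 loaded WT bones held 38.8 to 55.7 CPM of Ltbp2 and 3 of 4 loaded CKO bones 205 to 284. The loaded library labelled WT 686 held 380 CPM and the loaded library labelled CKO 688 held 38.4 CPM, so each of these libraries goes against its label by this gene, while the non-loaded libraries of both mice do not. The edgeR fit of all 22 libraries, in which these 2 enter the spread, gave the same fold change in non-loaded bone, 2.77 ± 0.57, and no call (adjusted p = 0.516). With the 2 loaded libraries left out it was 2.76 ± 0.225; they were singled out by their Ltbp2 levels, so the smaller error follows from that choice and its test is not used. Without both limbs of mice 686 and 688 the non-loaded comparison, then 6 WT against 3 CKO mice, gave 2.75 ± 0.325 and was not called (edgeR adjusted p = 0.157).

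The start of Ltbp2 is shared with an antisense gene, D030025P21Rik (ENSMUSG00000092130, chromosome 12, 84875769 to 84879755, plus strand), whose exon overlaps Ltbp2 exons by 764 bases. It was named after its values were seen. Its level was 0.122 to 0.607 CPM in WT with a median of 0.36, and 0.731 to 1.28 CPM in CKO, so that these groups also did not overlap. The means were 0.358 ± 0.145 (SD, n = 7) and 0.965 ± 0.245 (n = 4), the log2 fold change 1.42 ± 0.338 (SE; edgeR unadjusted p = 0.0012, adjusted p = 1). In the loaded bones it was 1.79 CPM in the library labelled WT 686 against 0.121 to 0.459 in the other WT, and 0.334 in the library labelled CKO 688 against 0.679 to 0.908 in the other CKO. The kit keeps strand, but the strand setting of the counting is not given in the sources used here. Reads of the 764 shared bases can thus not be assigned to 1 of the 2 genes. In non-loaded CKO bone the antisense gene had 20 to 38 counts in a library and Ltbp2 7667 to 10310, over 8184 exon bases.

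The sequence just before the Ltbp2 start is shown because it is the promoter side of the 1 gene called, and because all of its bases also lie in the exon of D030025P21Rik. It covers chr12:84876533-84876741 on the minus strand, 209 bases, and comes from RefSeq's promoter table for GRCm38.p6, 5′ to 3′. Capitals mark matches to the NF-kB motif, searched as GGGNNNNNCC on both strands.
Ltbp2: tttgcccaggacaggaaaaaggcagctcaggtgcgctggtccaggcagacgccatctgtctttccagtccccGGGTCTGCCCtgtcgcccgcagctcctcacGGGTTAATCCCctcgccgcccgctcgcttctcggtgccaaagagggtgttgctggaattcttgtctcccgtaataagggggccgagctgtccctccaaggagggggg
The 2 marked stretches hold 4 matches, counting both strands and overlapping matches, and 39.1% of the 32851 promoter windows in the table hold at least 1. The AP-1 motif, searched as TGANTCA on both strands, had 0 matches in the window and was found in 5.82% of windows. A match describes letters and is not a binding site.

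**Figure D3:**
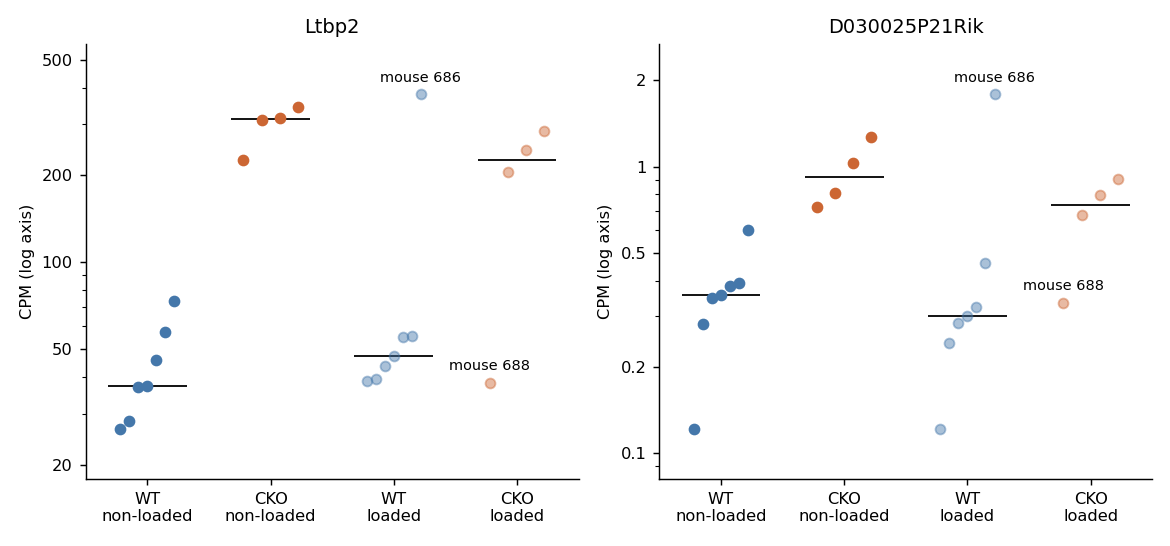
CPM (log axes, scaled over all 22 libraries) of Ltbp2 and of its antisense gene D030025P21Rik in each library of the 4 groups, with a line at each group median. In non-loaded bone the genotypes do not overlap for either gene; in loaded bone the libraries labelled WT 686 and CKO 688 lie with the other genotype.

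No other gene around Ltbp2 was called. Of 52 tested genes within 1 Mb, 18 were fitted above and 34 below WT, with a median of -0.045 and none called. The nearest genes on either side were Npc2, a cholesterol carrier of lysosomes, at -0.01 ± 0.16, Isca2, an iron-sulfur cluster assembly factor, at 0.05 ± 0.108, and Arel1, a ubiquitin ligase, at 0.06 ± 0.134. Abcd4 stood at -0.19 ± 0.179, Gm17193 at -0.07 ± 0.283 and Fcf1 at 0.10 ± 0.126. D030025P21Rik was the only one of the 52 whose groups did not overlap. Within 5 Mb, 114 genes were tested and their median was -0.06.

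**Figure D4:**
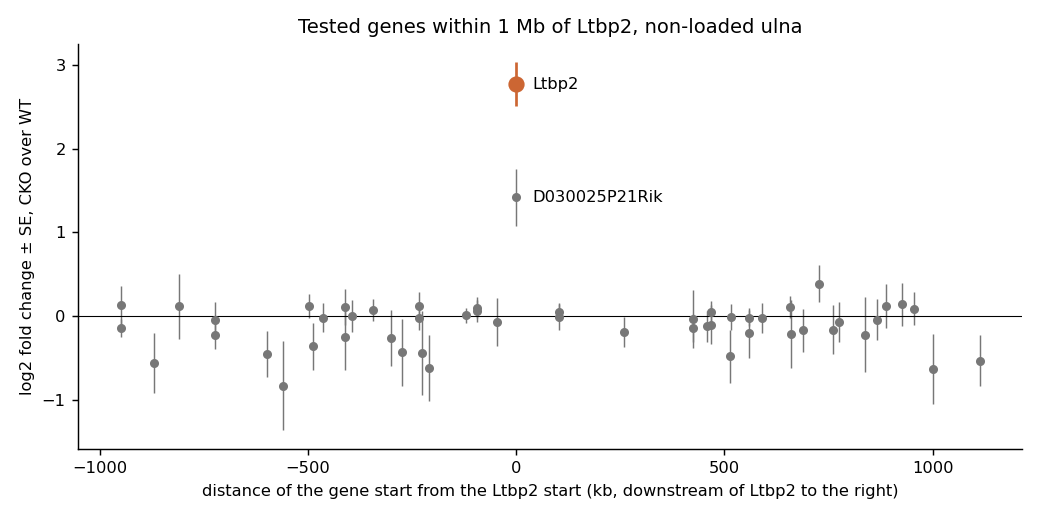
Log2 fold change ± SE, CKO over WT in non-loaded bone, of the tested genes within 1 Mb of Ltbp2, by the distance of their starts from the Ltbp2 start (kb). Ltbp2 at 2.77 and D030025P21Rik at 1.42 stand above the other neighbours, whose values lie on both sides of 0.

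The other genes of the structure that Ltbp2 belongs to were not called either. A list of 25 genes for latent TGF-beta binding proteins, fibrillins, fibulins, elastin, lysyl oxidases and the TGF-beta ligands had 5 members fitted above WT and 20 below, with a median of -0.27 and Ltbp2 as the only call. The other binding proteins were at -0.26 ± 0.177 (Ltbp1), -0.33 ± 0.214 (Ltbp3) and -0.37 ± 0.407 (Ltbp4). Fbn1, the main fibrillin, was at 0.02 ± 0.242, with 98.2 ± 17.2 CPM in WT and 99.7 ± 48.2 in CKO. Adamts10, a protease linked to microfibrils, was at -0.54 ± 0.242 (edgeR unadjusted p = 0.0457), from 61.5 ± 18.6 to 42.3 ± 10.2 CPM. Per kb of exon, Ltbp2 ranked 17th of the 25 in WT with a level of 5.39 CPM per kb, and first in CKO with 36.8. Ltbp4 led in WT with 24.2 CPM per kb and had 18.7 in CKO. Tgfb1 was second in both, with 23 and 25.3 CPM per kb. Because of Ltbp2 the summed level of the list was 1.07 times that of WT although most members were fitted lower.

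The receptor complex and its adaptors showed no called gene. Of 20 genes, all tested, 18 were fitted above and 2 below WT (Tlr4 and Irak3), with a median of 0.10 beside -0.003 for all genes, and no member reached an unadjusted p under 0.05. Co-receptors were low: Ly96 had 1.27 ± 0.354 CPM in WT (SD, n = 7) and 1.35 ± 0.704 in CKO (n = 4), and Cd14 had 5.93 ± 1.23 and 6.89 ± 4.45. Cd180, a TLR4-like receptor of B cells, was at 0.30 ± 0.244. Myd88, the main adaptor, was at 0.24 ± 0.257, with 28.8 ± 9.08 CPM in WT and 34 ± 13.1 in CKO. The highest Myd88 values of the 2 groups, 48.3 and 52.4 CPM, were those of WT 699 and CKO 691. The kinases and ubiquitin ligases below the adaptors varied little: Irak1 was at 0.07 ± 0.0949, Traf6 at 0.03 ± 0.0976 and Map3k7, the kinase TAK1, at 0.10 ± 0.106. Without CKO 691, or with muscle and marrow scores as covariates, the median of the list was below 0, the lowest at -0.03. The muscle score is the mean log2 CPM of the muscle list, and the marrow score that of the erythroid, neutrophil and B cell lists together.

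Further along the pathway no gene was called either. Of 15 NF-kB subunits and inhibitors 12 were fitted above WT, with a median of 0.05; Nfkbia, the inhibitor that NF-kB induces, had 64.8 ± 5.75 CPM in WT and 66.5 ± 20.5 in CKO. Of 16 tested inflammatory targets 15 were fitted above WT, with a median of 0.16. Il1b, a cytokine of activated myeloid cells, ranged from 5.59 to 30.6 CPM in WT with a median of 7.72, and had 5.87, 25.5, 8.09 and 8.37 CPM in CKO 688, 691, 693 and 698. Ccl2, which attracts monocytes, had 0.48 ± 0.251 CPM in WT and 0.707 ± 0.532 in CKO (0.57 ± 0.501). Il6, Ccl7, Cxcl1 and Cxcl2 were under the count filter, with at most 46 counts in a library. Of 20 interferon-stimulated genes 19 were fitted above WT, with a median of 0.20 and Rsad2 highest at 0.51. The medians of these 3 lists were below 0 without CKO 691. The 11 other Toll-like receptors had 8 members above WT and a median of 0.18, led by Tlr7, a receptor for single-stranded RNA, at 0.46 ± 0.252 (edgeR unadjusted p = 0.0949); the median was -0.116 without CKO 691 and -0.035 with the covariates. Of 12 ligands and alarmins 5 were above and 7 below, from Has1 at -0.32 to Hmgb1 at 0.23 ± 0.202.

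Genes of osteocytes were all fitted lower in CKO, and none was called. All 14 members were tested and lay between -0.74 (Mepe) and -0.29 (Fgf23), with a median of -0.59; 6 had an unadjusted p under 0.05, all lower, where 1.08% of all genes did. Sost was 734 CPM in WT 685, 673 in 687, 499 in 686, 394 in 690, 351 in 694, 284 in 699 and 264 in 692, and 312, 259, 263 and 288 CPM in CKO 688, 691, 693 and 698. The CKO bones lie together at the low end of the WT range and overlap it. The means were 457 ± 186 CPM (SD, n = 7) and 281 ± 24.8 (n = 4), and the log2 fold change was -0.70 ± 0.293 (SE; edgeR unadjusted p = 0.0334, adjusted p = 1).

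Mepe, a matrix phosphoglycoprotein of osteocytes, ran from 125 to 319 CPM in WT with a median of 192, and was 111, 122, 119 and 131 CPM in CKO 688, 691, 693 and 698 (-0.74 ± 0.259, edgeR unadjusted p = 0.0142). Dmp1, which takes part in mineralisation and phosphate control, ran from 124 to 265 CPM in WT with a median of 181, and was 125, 100, 140 and 111 CPM in CKO (-0.63 ± 0.237, edgeR unadjusted p = 0.0209). Both groups overlapped for either gene, and CKO lay at the lower end. Ackr3, Ptprz1 and Enpp1 were the other 3 with an unadjusted p under 0.05, at -0.58 ± 0.248, -0.63 ± 0.281 and -0.41 ± 0.171. Phex, a protease that limits Fgf23, was at -0.61 ± 0.349 and Fgf23 at -0.29 ± 0.454.

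The summed osteocyte level was 0.65 times that of WT by the group means. It was highest in WT 685 with 2195 CPM and WT 687 with 1846, and lowest in WT 699 with 855 and WT 692 with 884, while CKO lay between 759 and 932. Without WT 685 all 14 genes were still fitted lower and the median was -0.42; with muscle and marrow scores as covariates it was -0.28, again with 14 of 14 lower. In loaded bone, with the 2 libraries that go against their labels included, the fold changes of Sost, Mepe and Dmp1 were 0.07, 0.09 and 0.15. The test of the difference between limbs called no gene (lowest edgeR adjusted p = 0.697 over 18793 genes). It used all 22 libraries, so the same 2 enter its spread, and the lack of calls does not show that the limbs agree.

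Genes of osteoblasts and bone matrix lay in the same direction with a wider spread. Of 21 genes, 20 were fitted below WT, with a median of -0.59, none called and 1 with an unadjusted p under 0.05. That was Dlx3, a transcription factor of bone and tooth, at 15.4 ± 5.8 CPM in WT and 9.88 ± 2.04 in CKO (-0.64 ± 0.275, edgeR unadjusted p = 0.0382). Bglap, which encodes osteocalcin, ran from 46.9 to 516 CPM in WT with a median of 130, and was 75.3, 35.9, 146 and 74.5 CPM in CKO 688, 691, 693 and 698 (-1.10 ± 0.639, edgeR unadjusted p = 0.11). Col1a1 ran from 2565 to 19765 CPM in WT and from 1833 to 6820 in CKO (-0.82 ± 0.607). The highest value of both genes was that of WT 685. Alpl, the alkaline phosphatase of mineralising cells, was at -0.25 ± 0.297 and Ibsp at -0.25 ± 0.211. All 22 collagen genes were fitted lower, with a median of -0.445. Col11a2 was lowest at -0.97 ± 0.517. The collagen and osteoblast lists are not independent: their sums were 40468 and 39525 CPM in WT 685, and 14024 and 13860 in CKO 693. Of 16 genes of tendon and periosteal fibroblasts 15 were lower (median -0.36), and of 9 tested cartilage genes 8 were (median -0.365), among them Ihh, a growth plate signal, at -0.83 ± 0.348 (edgeR unadjusted p = 0.0341). These medians moved with the setting. The osteoblast median was -0.314 without WT 685, -0.166 with covariates for muscle and marrow, and -0.109 with voom's quality weights, where Col1a1 was at 0.07. The collagen median was -0.21 without WT 685, -0.22 without CKO 691 (15 of 22 lower) and -0.025 with the covariates. The fibroblast median was -0.155 without WT 685, -0.163 without CKO 691 and 0.025 with the covariates, and the cartilage median -0.216, -0.234 and -0.094.

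Signals that bone cells send to one another held no called gene. Of 23 Wnt ligands and antagonists 20 were fitted below WT, with a median of -0.35, which was -0.177 without CKO 691 (18 of 23 lower) and -0.099 with the covariates. Dkk1, a second Wnt antagonist of osteocytes, had 19.6 ± 7.39 CPM in WT and 13 ± 3.59 in CKO (-0.60 ± 0.274, edgeR unadjusted p = 0.0505). Wnt1 itself was at 1.25 ± 0.806 and 0.894 ± 0.187 CPM. The 8 genes of the RANKL and CSF1 axis, which governs osteoclast formation, were split 4 and 4, with a median of -0.036; without CKO 691 all 8 were fitted lower and it was -0.27. Tnfrsf11b, the decoy receptor osteoprotegerin, was 12.3 to 37.7 CPM in WT with a median of 29.3, and 18.6, 12, 27.3 and 17.3 CPM in CKO 688, 691, 693 and 698 (-0.63 ± 0.287, edgeR unadjusted p = 0.05). Its ligand Tnfsf11, RANKL, was at -0.20 ± 0.272, with 2.91 ± 1.04 and 2.52 ± 0.528 CPM. Of 16 osteoclast genes 12 were fitted lower, with a median of -0.11, from Dcstamp at -0.54 ± 0.344 to Car2 at 0.51 ± 0.51; without CKO 691 all 16 were lower (median -0.381), and without CKO 688 only 8 of 16 were. Of 19 tested immediate-early genes 18 were lower, with a median of -0.20; Egr3 had 23.9 ± 7.74 CPM in WT and 15.8 ± 3.93 in CKO (-0.60 ± 0.252, edgeR unadjusted p = 0.035).

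**Figure D5:**
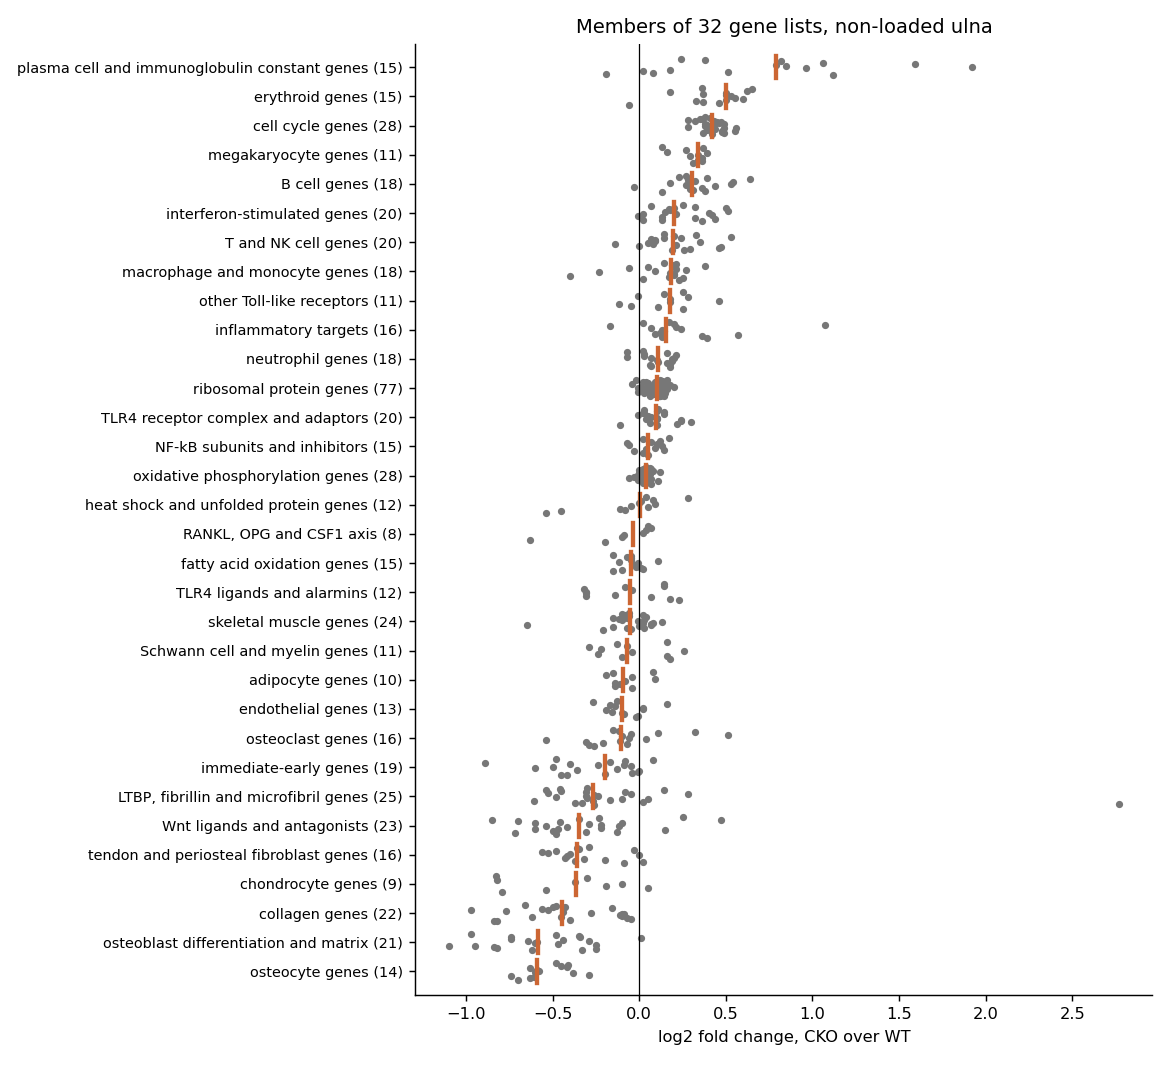
Log2 fold change, CKO over WT in non-loaded bone, of every tested member of 32 gene lists (grey points, number tested in brackets) with the list median (orange bar), ordered by median. Bone, collagen and fibroblast lists lie to the left, immunoglobulin, erythroid and cell cycle lists to the right, and Ltbp2 at 2.77 is the point farthest from 0.

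Immunoglobulin genes were mostly fitted higher in CKO, to different degrees in its 4 mice. Of 114 tested variable segments 93 were fitted above and 21 below WT, with a median of 0.78; none was called by edgeR, 28 had an unadjusted p under 0.05 and all 28 were higher, where 0.434% of all genes were. Their summed level was 176, 95.6, 108, 139, 74.6, 63.5 and 176 CPM in WT 685, 686, 687, 690, 692, 694 and 699, and 104, 338, 165 and 258 CPM in CKO 688, 691, 693 and 698. CKO 691 and 698 lie above every WT bone, and CKO 688 and 693 within their range. Reads may be shared between segments of similar sequence, which was not measured here. The values of single segments were driven by different mice. Igkv9-120 was 0.198 to 1.27 CPM in WT and 2.24, 4.01, 2.25 and 16.4 CPM in CKO 688, 691, 693 and 698 (3.07 ± 0.574, edgeR unadjusted p = 0.00018, adjusted p = 1). Ighv1-80 was at 2.42 ± 0.502 and Ighv14-2 at 2.37 ± 0.567. DESeq2 called Igkv9-120 and Ighv1-80. In the loaded limbs, however, Igkv9-120 was 0.319 to 3.04 CPM in WT and 0.501 to 1.1 in CKO. Its CKO mean was not above that of WT there, with or without the libraries labelled WT 686 and CKO 688.

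The constant genes lay in the same direction. Of 15 tested genes of plasma cells and immunoglobulin constant regions 14 were fitted above WT, with a median of 0.79 and 3 at an unadjusted p under 0.05. Igkc, the kappa light chain, was 90.1 to 273 CPM in WT with a median of 134, and 119, 503, 226 and 383 CPM in CKO 688, 691, 693 and 698 (1.06 ± 0.388, edgeR unadjusted p = 0.0186). Ighg1 had 5.71, 76.8, 16.3 and 63.4 CPM in those CKO mice and 2.73 to 19.4 in WT (1.92 ± 0.679, edgeR unadjusted p = 0.0153). Jchain, which joins IgM and IgA subunits, was at 1.12 ± 0.442 (edgeR unadjusted p = 0.0261). The plasma cell factors Prdm1 and Xbp1 were at 0.02 ± 0.229 and 0.08 ± 0.167. CKO 691 was also the library with the most marrow RNA of its group. Without it the list median was 0.27, and with voom's quality weights 0.35.

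Of 18 B cell genes 17 were fitted above WT, with a median of 0.30 that stayed between 0.16 and 0.455 in every other setting run. The fit with the covariates is among these settings, and its marrow score contains the B cell genes. Ighm, the heavy chain of IgM, was 104 to 252 CPM in WT and 246, 319, 214 and 471 CPM in CKO 688, 691, 693 and 698 (0.64 ± 0.27, edgeR unadjusted p = 0.0353). Cd79a, a part of the B cell receptor, was at 0.38 ± 0.302. The summed B cell level spanned 248 to 763 CPM in WT and 617 to 856 in CKO.

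The other lists of marrow cells were fitted slightly above WT. Erythroid genes had a median of 0.50 with 14 of 15 higher (Alas2, an enzyme of haem synthesis, 0.50 ± 0.472), megakaryocyte genes 0.34 with 11 of 11, T and NK cell genes 0.20 with 18 of 20, macrophage genes 0.18 with 15 of 18 and neutrophil genes 0.11 with 16 of 18. All 28 cell cycle genes were fitted higher, with a median of 0.42; Mki67 ran from 181 to 1264 CPM in WT and from 265 to 1157 in CKO. No member of these lists was called. The cell cycle, megakaryocyte, neutrophil, macrophage and T cell medians were below 0 without CKO 691. The erythroid median was then 0.019, with 10 of 15 higher, and it was -0.162 with the covariates. The marrow score is made from the erythroid, neutrophil and B cell genes themselves. For these lists the covariate fit removes much of the difference by construction, and it is no check of them. Muscle genes were divided, with 10 of 24 above WT and a median of -0.06; Myh4 of fast fibres was at 0.00 ± 0.662 and Acta1 at 0.03 ± 0.489. Endothelial genes had a median of -0.10, adipocyte genes -0.09, Schwann cell genes -0.07, fatty acid oxidation genes -0.05, heat shock genes 0.00, oxidative phosphorylation genes 0.04 and ribosomal protein genes 0.105.

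Taken one by one, the named genes of at least 1 CPM with the smallest p after Ltbp2 differed by less than 1 log2 unit, immunoglobulin genes aside. Among the higher ones, Gata3, a transcription factor of T cells and other lineages, was 0.952 to 1.39 CPM in WT and 1.67, 1.99, 1.52 and 1.72 CPM in CKO 688, 691, 693 and 698 (0.53 ± 0.18, edgeR unadjusted p = 0.0124), without overlap. Rpusd2 also did not overlap (0.35 ± 0.135), with 4.95 to 5.8 CPM in WT and 5.99 to 8.98 in CKO. In loaded bone without WT 686 and CKO 688, Gata3 was 1.11 to 1.75 CPM in WT and 0.825 to 1.25 in CKO. The Gata3 means thus went the other way in the loaded limbs, as they did over all 11 loaded libraries. Serf1, Nle1, Prrg4 and Eif5a2 followed, from 0.34 to 0.67. Among the lower ones, Irx6, a homeobox factor, was 3.4 to 5.9 CPM in WT and 3.14, 2.45, 3.08 and 2.12 CPM in CKO (-0.69 ± 0.196, edgeR unadjusted p = 0.00437). Prr15 was 5.39 to 11.7 CPM in WT and 4.08 to 5.3 in CKO (-0.76 ± 0.248), and Banp, a nuclear matrix protein, 17 to 23 and 15.7 to 16.3 (-0.31 ± 0.106). Groups did not overlap for these 3. In loaded bone the means of Irx6 and Prr15 were lower in CKO over all 11 libraries, but not without WT 686 and CKO 688. The mean of Banp was lower in CKO both ways. Hyal1, a hyaluronidase, was at -0.49 ± 0.173, Peli3, a ubiquitin ligase of Toll-like receptor signalling, at -0.72 ± 0.251, and Pcdhb13, Ccdc114, Mfsd4b5 and Marveld1 between -0.88 and -0.27.

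In all, every CKO library lay above every WT library for 11 genes (0.0605% of those tested) and below for 21 (0.115%). Of the 330 splits of the mice 1 puts the CKO libraries on top and 1 at the bottom, a larger share than either percentage. Lack of overlap alone is thus no sign of a difference. Genes vary together, so this is a reference and not a test. Of these 32 genes 18 were protein-coding and 11 had a mean under 1 CPM in both groups. In loaded bone the means of 27 of the 32 lay in the same direction over all 11 libraries, and of 24 without WT 686 and CKO 688. The share of all genes that kept their direction was not counted. None of the 32 was apart over all 11 loaded libraries, where 0.737% of all genes had CKO above and 0.506% below WT. With WT 686 and CKO 688 left out of the loaded libraries, 4 of the 32 were apart in the same direction as in non-loaded bone (12.5%). Of all genes, 10.3% had CKO above and 8.47% below WT in these 6 against 3 libraries, 18.8% in either direction. The 12.5% is counted in 1 direction for each gene, so the 18.8% is not its reference. These 4 were Ltbp2, D030025P21Rik, Banp and Vgll4. The 2 libraries were left out because of their Ltbp2 levels, so that choice made Ltbp2 apart in loaded bone, and the antisense gene shares its locus. Vgll4 is a transcription cofactor, named after its values were seen (40.1 ± 3.4 CPM in WT, 33.8 ± 1.12 in CKO, -0.25 ± 0.0919). In loaded bone Banp was 15.6 CPM in WT 686 against 18.3 to 23.3 in the other WT. It was 18.7 CPM in CKO 688 against 12.8 to 15.6 in the other CKO. Loaded Vgll4 was 34.5 CPM in WT 686 against 35.7 to 39.3, and 35 in CKO 688 against 29.9 to 33.9. The cause was not tested. The gene model Gm19945, a processed pseudogene named because DESeq2 called it, had 3 to 29 counts in each WT library and 0 in all 4 CKO libraries. In loaded CKO bone, however, it reached 0.469 CPM, and edgeR did not call it (adjusted p = 1). Gm49392, called only without CKO 693, had 10 to 23 counts in each WT library, 9 in CKO 693 and 0 in the other 3 CKO libraries.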

How the data were processed

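Per the labels' protocols, libraries were prepared from 4 ng of ulna RNA by a kit that keeps strand. The authors deposited expected counts per gene, as whole numbers, made with STAR and RSEM on GRCm38 per the submitters' processing notes; versions, annotation and strand setting were not given in the sources used here. Of 25471 genes 25428 matched GENCODE M21, which gave coordinates. The counts, whole already, were unchanged by rounding. The 11 non-loaded libraries were fitted with edgeR 4.0.16 (R 4.3.3, limma 3.58.1): filterByExpr kept 18185 genes, TMM scaling, robust glmQLFit, glmQLFTest, a biological coefficient of variation of 0.311, 9 residual degrees of freedom, Benjamini-Hochberg over all genes tested, called under 0.05. The SE is the size of the fold change over the square root of F. Loaded libraries were kept out because 2 of them go against their labels by their Ltbp2 levels. Ltbp2 is also the only gene called, so the choice of the main fit is not independent of that call. That choice, the members and the lists were made with earlier results of these data known. The alternatives tried were upper-quartile or median-ratio scaling, other filters, covariates, DESeq2 1.42.0, voom, fits with the loaded libraries, and leaving out mice. Limbs with the same number come from the same mouse. The labels give separate mice and nothing on litters or batches.

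Named genes were a fixed set of bone, marrow and TLR4 genes; all called genes and the 10 smallest p in each direction with a mean of at least 1 CPM, unnamed models, pseudogenes and receptor segments aside; 3 immunoglobulin V segments; 2 members of each of 32 lists; and 3 neighbours on each side of Tlr4 and Ltbp2. A few of these are not reported here. D030025P21Rik, Vgll4, Gm19945 and Gm49392 were added after their values were seen.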

Additional observations from a re-analysis of the deposited data

Results flagged for a closer look

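Within each genotype, the highest or lowest of the libraries was compared with the rest of its group for 115 named genes, by the gap to its nearest neighbour as a share of the range. In 23 of 229 groups a library stood apart, where chance gives about 1 in 20; 14 were in WT and 9 in CKO.

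WT 699, the WT library with the least muscle and the most neutrophil RNA, was highest for Myd88 (48.3 CPM), Il1b (30.6), Mpo (1302), Mki67 (1264), Tollip (72.2), Tlr7 (22.4), Car2 (484), Tfrc (389), Cxcr2 (200 CPM), Lcn2 (1834), Mcm3 (82.1), Mcm2 (96.1) and Arel1 (81.4). CKO 691, its counterpart in CKO, was highest for Il1b (25.5 CPM), Tlr9 (16.7), Dcstamp (3.23) and Fcgr1 (14), and lowest for Myh2 (523), S100b (6.1) and Cox5b (87). WT 685, highest in bone matrix genes, was highest for Hapln1 (4.8 CPM). CKO 698 was highest for Igkv9-120 (16.4 CPM) and CKO 693 for Gm49392 (0.311). No library of either group stood apart for Tlr4, Ltbp2 or Sost.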

How the results depend on the processing

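The number of genes called was 1 in 9 of 13 other settings that leave out no single replicate, 4 with DESeq2 (Ltbp2, Ighv1-80, Igkv9-120 and Gm19945), and 1 to 2 when each replicate was left out. It was 0 with all 22 libraries, 0 in the replicate block fit, with the mouse as a random effect over both limbs, and 0 without mice 686 and 688. Ltbp2 was then at 2.77, 2.85 and 2.75, with an adjusted p of 0.516, 0.907 and 0.157; in the replicate block fit the limbs of a mouse correlated at 0.155. A fixed block could not be fitted, since a mouse has 1 genotype. These fits had 572, 658 and 387 genes with an unadjusted p under 0.05; over all settings the number ran from 154 to 2329. The block ended no other call. Over the other settings Ltbp2 lay between 2.68 and 3.06 and was called; one of these leaves out the 2 loaded libraries picked by their Ltbp2 levels, and its call is no support. Tlr4 lay between -0.168 and -0.034 without 1 replicate (exact permutation p = 0.148 to 0.817) and was -0.044 on CPM by library total.

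Of the named genes other than Ltbp2 none was called in edgeR's main test, and 98 fitted values took the other sign. With muscle and marrow scores as covariates these were Alas2 (-0.17), Alpl (0.02), Arel1 (-0.07), Brinp1 (0.0018), Car2 (-0.19), Cdk5rap2 (-0.03), Cxcr2 (-0.22), Fabp4 (0.11), Gp5 (-0.26), Il1b (-0.35), Isca2 (-0.03), Lcn2 (-0.23), Lpl (0.11), Ly96 (-0.2), Mcm2 (-0.01), Mki67 (-0.16), Mpo (-0.3), Myd88 (-0.00042), Myh7 (0.02), Nfkbia (-0.04), Pappa (0.1), Robo4 (0.01) and Tnfsf11 (0.04). With voom's quality weights they were Acta1 (-0.02), Alpl (0.18), Cd14 (-0.01), Col1a1 (0.07), Gm17193 (0.29), Ly96 (-0.53), Myh2 (0.04), Pappa (0.09) and Tnfsf11 (0.08), and in the replicate block fit Acta1 (-0.12) and Nfkbia (-0.02). Myh4, at 0.00 with edgeR as reported, was -0.01 with DESeq2, with median-ratio scaling and without loaded 686 and 688, -0.00016 at 1 CPM in 4 libraries and -0.0025 with no filter. Without mice 686 and 688 Acta1 was -0.24, Gm17193 0.11, Myh4 -0.3, Ndufb8 -0.05 and Npc2 0.07. Without mice 691 and 699, a setting chosen after seeing the data, Cd14 was -0.28, Fcgr1 -0.08, Il1b -0.04, Ly96 -0.19, Myh2 0.03 and Nfkbia -0.05. Leaving out each replicate in turn turned 26 genes, given here with their lowest and highest values. Without CKO 691 alone these were Arel1 (-0.05 to 0.16), Car2 (-0.01 to 0.95), Cd14 (-0.34 to 0.44), Cxcr2 (-0.27 to 0.75), Decr1 (-0.32 to 0.07), Fcgr1 (-0.18 to 0.58), Gp5 (-0.24 to 0.69), Il1b (-0.57 to 0.66), Lcn2 (-0.31 to 0.8), Lpl (-0.34 to 0.08), Ly96 (-0.27 to 0.29), Mki67 (-0.09 to 0.94), Mpo (-0.33 to 0.67), Myd88 (-0.05 to 0.43), Myh2 (-0.28 to 0.13). Without other libraries or several they were Acta1 (-0.29 to 0.36), Ccl2 (-0.07 to 0.81), Cdk5rap2 (-0.06 to 0.1), Gm17193 (-0.19 to 0.06), Isca2 (-3.9e-06 to 0.09), Myh4 (-0.28 to 0.37), Ndufb8 (-0.06 to 0.32), Nfkbia (-0.13 to 0.16), Npc2 (-0.19 to 0.09), Pappa (-0.24 to 0.06), Ywhaq-ps3 (-0.18 to 0.21).

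The cause of these moves was not tested. The medians of the osteocyte, osteoblast, collagen, Wnt, microfibril, cartilage, immediate-early, endothelial, B cell and plasma cell lists kept their sign in all 24 other settings; each of the other 22 lists took the other sign in at least 1, 15 of them without CKO 691 and 14 with the covariates. The lists come from the same libraries and can share genes, so their medians are not independent of one another. With 4 CKO mice the precision is that of the SEs given, and small changes were not detectable.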
